A study of Mus musculus with 18 samples.

Results

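The osteoclast program genes are 8 genes that bone-resorbing osteoclasts, or the macrophages that become them, switch on: Tnfrsf11a, Nfatc1, Oscar, Dcstamp, Ocstamp, Acp5, Ctsk and Atp6v0d2. They were followed in mouse bone marrow derived macrophages over a day of dexamethasone, a synthetic glucocorticoid. Members were the array's probe sets annotated with exactly 1 of these gene symbols. The rule found 14 of the 45141 probe sets, for 7 of the 8 genes, out of 17097 genes named on the array. Dcstamp had no probe set by this rule and was not analysed here. Nfatc1 had 5 probe sets, Tnfrsf11a, Oscar and Atp6v0d2 had a pair each, and Acp5, Ctsk and Ocstamp had 1 each.

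The study comprised 18 Affymetrix arrays in 6 groups of 3. Macrophages were treated with 100 nM dexamethasone for 1, 2, 4, 10 or 24 h, and untreated cells were taken at baseline. In every group the cells came from the marrow of male C57BL/6 mice aged 10 weeks. The labels name 3 mice without tying an array to a mouse, so p-values measure the spread between arrays and may leave out part of the spread between animals. All groups shared a week of culture in fetal calf serum with recombinant human CSF1, followed by replating in the same factors. The labels name no RANK ligand, the cytokine that drives osteoclast formation, in any group, and the only untreated arrays were those taken at baseline, so hours in culture and hours of dexamethasone cannot be told apart.

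RANK, the product of Tnfrsf11a, is the receptor through which RANK ligand turns macrophage precursors into osteoclasts. Its signal, joined by immunoreceptors such as OSCAR that raise intracellular calcium, switches on NFATc1, the master transcription factor of the lineage. NFATc1, with AP-1 proteins, MITF and PU.1, then drives the genes for cell fusion (Dcstamp, Ocstamp, Atp6v0d2) and for bone resorption (Acp5, Ctsk). Glucocorticoids act on bone through several cell types, macrophage-lineage precursors among them.

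The start regions of Tnfrsf11a, the receptor gene at the head of the program, and Ctsk, one of its resorption genes, are shown because both ends of the program were measured well above background here. Both are RefSeq windows of GRCm38.p6, on the plus strand, from 250 bases before an annotated start to 50 after it; for Tnfrsf11a that start lies downstream of the first base of its RefSeq gene record. The Tnfrsf11a window lies at chr1:105780473-105780772 and that of Ctsk at chr3:95498960-95499259. Capitals mark every match, on either strand, to 6 motifs: the NFAT core GGAAA, the AP-1 site TGANTCA, the E-box CANNTG, the PU.1 core GAGGAA, the glucocorticoid receptor half-site AGAACA and the full receptor element, a pair of facing half-sites.
Tnfrsf11a: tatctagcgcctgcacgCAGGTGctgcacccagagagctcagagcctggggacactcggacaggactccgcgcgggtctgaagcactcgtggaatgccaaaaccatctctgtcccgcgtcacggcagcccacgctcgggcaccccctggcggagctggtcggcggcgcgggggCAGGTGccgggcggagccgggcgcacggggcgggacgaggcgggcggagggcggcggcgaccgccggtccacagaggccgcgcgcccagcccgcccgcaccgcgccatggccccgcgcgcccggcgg
Ctsk: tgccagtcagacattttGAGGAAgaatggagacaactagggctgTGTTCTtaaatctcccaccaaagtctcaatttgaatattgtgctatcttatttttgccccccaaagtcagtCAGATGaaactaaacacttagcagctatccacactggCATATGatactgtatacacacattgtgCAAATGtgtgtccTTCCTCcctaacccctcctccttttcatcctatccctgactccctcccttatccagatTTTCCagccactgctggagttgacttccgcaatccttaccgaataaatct
The Tnfrsf11a window was 76.7% G and C and held 2 E-boxes and no match to the other 5 motifs. That of Ctsk was 43.7% G and C and held 3 E-boxes, 2 PU.1 cores, 1 NFAT core and 1 glucocorticoid receptor half-site, and no marked matches overlapped in either window. Such matches are common: of 32851 windows of the same length, with a median of 52.7% G and C, 72.3% held an E-box, 61.3% an NFAT core, 28.3% a PU.1 core, 19.0% a receptor half-site and 7.81% an AP-1 site. A match describes the letters of the window and not a site in use. Windows were found for 4 of the 8 members, and those of Acp5 and Oscar are not printed.

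On these arrays the program was split by level. Nfatc1, Tnfrsf11a, Acp5, Ctsk and Atp6v0d2 lay above the background level of 3.86 log2 on all 18 arrays with their brightest probe set, while Oscar and Ocstamp lay above it on 0 of 18. All values are log2 of the deposited intensity, and they are compared between times and never between probe sets. Background was taken as the 95th percentile of 43 control probe sets. All 8 macrophage markers were above background, with means over the arrays between 8.68 and 12.99 log2, among them Csf1r, Adgre1 and Cd68. Of the osteoblast and stroma markers 3 of 8 were above background, the highest mean being 4.29 log2, as were 1 of 5 dendritic cell markers and 2 of 8 T and B cell markers.

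Replicate arrays correlated at 0.995 to 0.997, and 68.7% to 81% of the genes tested lay above background on an array. The glucocorticoid response was present: Fkbp5, a classical glucocorticoid receptor target, averaged 11.16 log2 at 24 h against 7.62 log2 at baseline, a rise of 3.54 ± 0.07 (limma SE, 3 arrays each, adjusted p = 1.86e-21). As a measure of RNA integrity, the control probe set at the 3' end of Gapdh exceeded that at the 5' end by 0.06 log2 at baseline and by 0.17, 0.15, 0.19, 0.20 and 0.20 log2 at 1, 2, 4, 10 and 24 h. The 1, 4, 10 and 24 h arrays all exceeded the baseline arrays in this measure, and those at 2 h overlapped them. For Actb the same difference was 0.38 log2 at baseline and 0.40, 0.43, 0.42, 0.42 and 0.43 log2 at 1, 2, 4, 10 and 24 h. By Actb the 2 and 24 h arrays all exceeded the baseline arrays, and those at 1 h overlapped them. The part of RNA integrity in the results that follow was not tested. Among 9 neutrophil markers 7 were above background, and Elane and Cxcr2 were not. Their summed intensity on the linear scale ran from 1108 to 1287 at 24 h against 859 to 1371 at baseline, yet S100a9, Ngp and Ltf fell by 1.18, 1.13 and 0.90 log2 and Mmp8 rose by 1.59 log2 at 24 h. The part of these cells in the 24 h results was not tested.

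Of the 8 members, 6 passed a filter on low values and were tested; Ocstamp failed it and Dcstamp had no probe set. No member was called at 1 h, when limma called 0.387% of all 13190 genes at an adjusted p under 0.05, or at 2 h, when it called 2.15%. The counts at an unadjusted p under 0.05 were 0 at 1 h and 1 at 2 h. At 4 h 2 of 6 members rose and 0 fell, against 7.52% of all genes called and 4.50% called higher. At 10 h 2 rose and 0 fell, against 14.4% of all genes called and 8.29% called higher. At 24 h 1 rose and 1 fell, against 12.7% of all genes called, 7.38% higher and 5.34% lower. The F test over all 5 times called 1 of 6 members, against 17.4% of all genes. With 6 genes tested these shares are coarse, and the members were chosen with earlier results of these data known. The median change of the 6 was -0.05, 0.07, 0.15, 0.12 and 0.21 log2 at 1, 2, 4, 10 and 24 h, against a median over all genes between 0.00 and 0.01 log2. The 6 include Oscar, which was under background on every array. At 4, 10 and 24 h its change was 1 of the middle pair of values that set this median. Between successive times no member was called: all genes were called at a rate of 1.12% for 2 h against 1 h, 1.90% for 4 h against 2 h, 4.18% for 10 h against 4 h and 2.16% for 24 h against 10 h. At an unadjusted p under 0.05 the counts for those steps were 0, 1, 0 and 1.

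**Figure D1:**
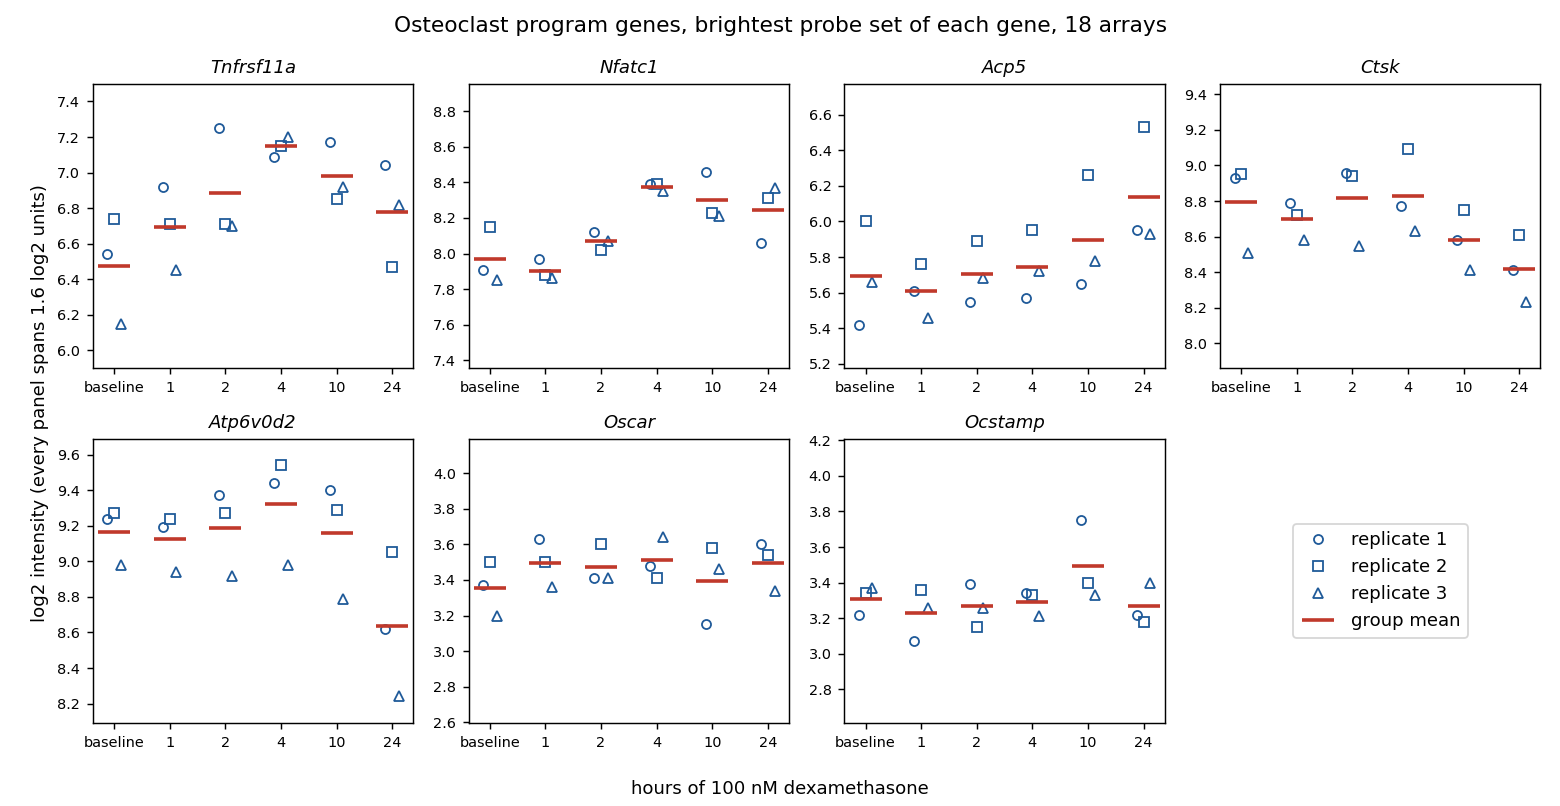
Log2 intensity of the brightest probe set of each osteoclast program gene on all 18 arrays, at baseline and after 1, 2, 4, 10 and 24 h of dexamethasone; open symbols are arrays by replicate number and red bars are group means of 3. Tnfrsf11a and Nfatc1 stand highest at 4 h, Atp6v0d2 and Ctsk lowest at 24 h, and Oscar and Ocstamp stay below the background level of 3.86 throughout.

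Tnfrsf11a, the gene for the receptor RANK, was higher at 4 and 10 h of dexamethasone. On its brighter probe set, 1419214_PM_at, the arrays read 6.54, 6.74 and 6.15 log2 at baseline, 6.92, 6.71 and 6.45 at 1 h, 7.25, 6.71 and 6.70 at 2 h, 7.09, 7.15 and 7.20 at 4 h, 7.17, 6.85 and 6.92 at 10 h and 7.04, 6.47 and 6.82 at 24 h. All arrays of the 4 and 10 h groups lay above every baseline array, while the 1, 2 and 24 h groups overlapped baseline. Against baseline the rise was 0.67 ± 0.16 log2 at 4 h (95% interval 0.33 to 1.01, 1.59-fold, limma adjusted p = 0.0101) and 0.50 ± 0.16 log2 at 10 h (1.41-fold, adjusted p = 0.0436). The difference did not pass at 2 h (0.41 log2, adjusted p = 0.375) or at 24 h (0.30 log2, interval -0.04 to 0.64, adjusted p = 0.271). The F test over all times gave an adjusted p of 0.0523, just short of the threshold. Without baseline replicate 3, the lowest of the 18 arrays, the change at 4 h had an adjusted p of 0.0894, and the call at 10 h was lost when any of 9 single arrays was left out, with an adjusted p of up to 0.255. Over 13 other ways of processing the limma adjusted p ran from 0.000515 to 0.0387 at 4 h and from 0.00677 to 0.0917 at 10 h.

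The other Tnfrsf11a probe set, 1430259_PM_at, placed the rise later. It read 6.10, 5.53 and 5.78 log2 at baseline, 6.18, 6.01 and 6.05 at 1 h, 6.24, 5.85 and 6.13 at 2 h, 6.02, 6.36 and 5.93 at 4 h, 6.33, 6.31 and 6.34 at 10 h and 6.54, 6.14 and 6.30 at 24 h. Every array at 10 and 24 h lay above every baseline array, whereas at 4 h the groups overlapped. In a fit of all 21484 probe sets that passed the filter it rose by 0.52 ± 0.15 log2 at 10 h (limma adjusted p = 0.0224) and by 0.52 ± 0.15 log2 at 24 h (adjusted p = 0.0244), with 0.30 ± 0.15 log2 at 4 h (adjusted p = 0.331). In that fit the brighter probe set passed at 4 h (adjusted p = 0.0127) and missed at 10 h (adjusted p = 0.0524). Both probe sets were higher than baseline at every time in mean value, by 0.22 to 0.67 log2, and they disagreed on when the difference passed. In these bulk samples a change in the share of cells of a type and a change in RNA per cell cannot be told apart.

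Nfatc1, the transcription factor that commits precursors to the lineage, was higher at 4, 10 and 24 h on its brightest probe set, and on that one alone of its 5. Probe set 1428479_PM_at read 7.91, 8.15 and 7.85 log2 at baseline, 7.97, 7.88 and 7.86 at 1 h, 8.12, 8.02 and 8.07 at 2 h, 8.39, 8.39 and 8.35 at 4 h, 8.46, 8.23 and 8.21 at 10 h and 8.06, 8.31 and 8.37 at 24 h. The 4 h arrays lay within 0.03 log2 (SD) of each other and above all baseline arrays, as did the 10 h arrays with a wider spread, while at 24 h replicate 1 fell inside the baseline range. The rise was 0.41 ± 0.09 log2 at 4 h (95% interval 0.23 to 0.59, 1.33-fold, limma adjusted p = 0.00276), 0.33 ± 0.09 log2 at 10 h (1.26-fold, adjusted p = 0.0104) and 0.28 ± 0.09 log2 at 24 h (1.21-fold, adjusted p = 0.0355). At 1 h the difference was -0.06 log2 (interval -0.24 to 0.12) and at 2 h 0.11 log2 (adjusted p = 0.808). With 1 probe set per gene, Nfatc1 was the only one of the 6 members called by the F test, with an adjusted p of 0.000694.

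Ordered by mean, the Nfatc1 levels on that probe set were 8.38 log2 at 4 h, 8.30 at 10 h, 8.25 at 24 h, 8.07 at 2 h, 7.97 at baseline and 7.91 at 1 h. No 2 neighbours in this order differed at an adjusted p under 0.05. The 4, 10 and 24 h groups each exceeded the 1 h group, by 0.47, 0.39 and 0.34 log2, whereas 4 h exceeded 2 h by 0.30 log2 with an adjusted p of 0.0835. Leaving out single arrays left the 4 h rise called in every case (adjusted p up to 0.0259). Over 13 other ways of processing, the choice of probe set among them, the limma adjusted p at 4 h ran from 0.000762 to 0.831. The 10 h call was lost without baseline replicate 3 or without 10 h replicate 1 (adjusted p up to 0.075). That at 24 h was lost without baseline replicate 1 or 3, or without 24 h replicate 2 or 3 (adjusted p up to 0.18).

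The 4 other Nfatc1 probe sets carried no call at any time. Probe set 1417621_PM_at read 7.04, 6.86 and 6.76 log2 at baseline, 7.09, 7.05 and 6.89 at 1 h, 7.04, 7.16 and 7.06 at 2 h, 7.08, 7.10 and 7.07 at 4 h, 6.84, 6.75 and 7.01 at 10 h and 6.84, 7.08 and 6.77 at 24 h. At 4 h its 3 arrays lay above all baseline arrays, with a change of 0.20 ± 0.10 log2 that missed the threshold (limma adjusted p = 0.354), and at 10 and 24 h it stood at -0.02 and 0.01 log2. Probe set 1425761_PM_a_at read 5.77, 5.38 and 5.49 log2 at baseline and ended at 5.37, 4.96 and 5.34 at 10 h and 5.66, 5.25 and 5.08 at 24 h. These are changes of -0.32 ± 0.16 log2 at 10 h (adjusted p = 0.218) and -0.21 ± 0.16 log2 at 24 h (adjusted p = 0.458), opposite in sign to the brightest probe set. The remaining pair, 1447085_PM_s_at and 1447084_PM_at, stayed between 3.87 and 4.74 log2, close to background, with changes from -0.27 to 0.27 log2. Over the 18 arrays, which share the time groups, the brightest probe set had a Pearson r of 0.00 with 1417621_PM_at and -0.33 with 1425761_PM_a_at. The rise of Nfatc1 is a result of 1 of its 5 probe sets.

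**Figure D2:**
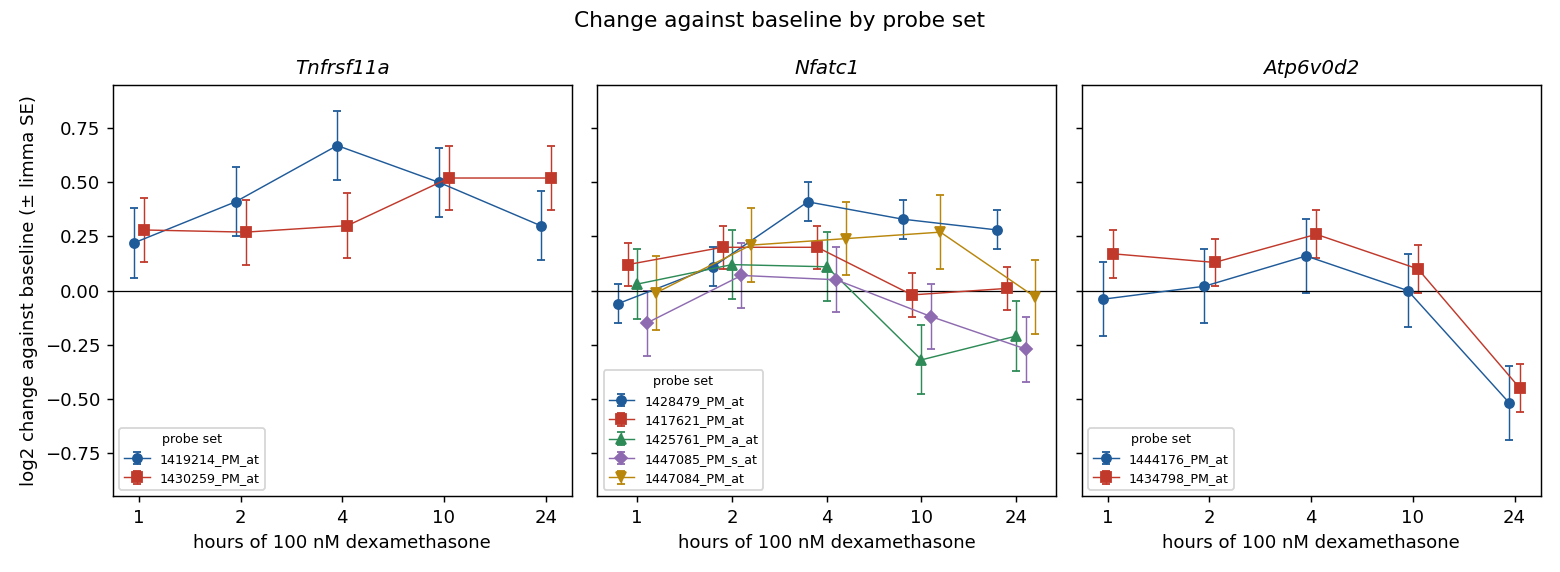
Log2 change against baseline of every probe set of Tnfrsf11a, Nfatc1 and Atp6v0d2 at 1, 2, 4, 10 and 24 h of dexamethasone, with limma standard errors from 3 arrays a group. The Atp6v0d2 probe sets move together and end at -0.52 and -0.45 at 24 h, those of Tnfrsf11a lie above 0 with different peaks, and those of Nfatc1 spread apart at 10 and 24 h, from -0.32 to 0.33.

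The genes whose pattern was most like that of Nfatc1 were Abcd2, a peroxisomal fatty acid transporter, Adgrg6, an adhesion receptor coupled to G proteins, and Tbc1d14, a regulator of recycling endosomes and autophagy. They had the highest Pearson r with its brightest probe set over the 18 arrays, 0.91, 0.90 and 0.90, among 2299 other genes called by the F test. Against baseline Adgrg6 stood at 0.07, 0.67 and 1.94 log2 at 1, 2 and 4 h, Abcd2 at -0.26, 0.24 and 1.09, and Tbc1d14 at -0.02, 0.40 and 0.73. At 24 h they stood at 1.67, 0.63 and 0.51 log2.

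Oscar and the fusion gene Ocstamp were not detected in either state. Oscar, the co-receptor whose ITAM-linked signal adds to that of RANK, ran from 3.15 to 3.64 log2 on probe set 1451710_PM_at and from 2.99 to 3.70 log2 on 1425442_PM_at over the 18 arrays. Ocstamp, a membrane protein of multinucleation, ran from 3.07 to 3.75 log2. All 3 probe sets stayed under the background level on every array, so a change beneath it could not be seen. For Oscar the tested changes lay between 0.04 and 0.15 log2 on the brighter probe set and between -0.20 and -0.04 log2 on the other, with no call and an F test adjusted p of 0.876 for the brighter one. Ocstamp did not pass the filter on low values.

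Atp6v0d2, a subunit of the proton pump's membrane sector that is used for fusion of osteoclast precursors, was lower at 24 h. On probe set 1444176_PM_at the arrays read 9.24, 9.27 and 8.98 log2 at baseline, 9.19, 9.24 and 8.94 at 1 h, 9.37, 9.27 and 8.92 at 2 h, 9.44, 9.54 and 8.98 at 4 h, 9.40, 9.29 and 8.79 at 10 h and 8.62, 9.05 and 8.24 at 24 h. The arrays numbered replicate 3 were the lowest in all 6 groups, and at 24 h replicate 2 lay above the lowest baseline array, so the groups overlapped. It fell by 0.52 ± 0.17 log2 at 24 h (95% interval -0.87 to -0.17, 0.696-fold, limma adjusted p = 0.0429). From 1 to 10 h the changes lay between -0.04 and 0.16 log2, none called. The 24 h level was also below that at 4 h, by a difference of -0.68 ± 0.17 log2 (adjusted p = 0.0117), and below that at 2 h, by -0.55 ± 0.17 log2 (adjusted p = 0.0456). The call at 24 h was lost when any of 5 single arrays was left out, baseline replicate 1 or 2, 1 h replicate 1 or 24 h replicate 1 or 3 (adjusted p up to 0.279), and the F test gave an adjusted p of 0.0594. Over 13 other ways of processing, which include the replicate number as a block, the limma adjusted p at 24 h ran from 6.55e-06 to 0.127.

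The other Atp6v0d2 probe set showed the fall more tightly. Probe set 1434798_PM_at read 9.01, 9.09 and 8.92 log2 at baseline, 9.24, 9.22 and 9.07 at 1 h, 9.20, 9.23 and 8.97 at 2 h, 9.20, 9.51 and 9.09 at 4 h, 9.08, 9.25 and 9.01 at 10 h and 8.44, 8.85 and 8.38 at 24 h. All 24 h arrays lay below all arrays of every other group. In the fit of all probe sets it fell by 0.45 ± 0.11 log2 at 24 h (limma adjusted p = 0.00703), while 1444176_PM_at had an adjusted p of 0.0522 in the same fit. The F test of that fit gave adjusted p-values of 0.000406 for 1434798_PM_at and 0.0728 for 1444176_PM_at. The pair had a Pearson r of 0.88 over the 18 arrays.

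The resorption genes did not pass against baseline at any time in the fit of all 18 arrays without further terms, and for Ctsk at 24 h the value lay close to the threshold. With the replicate number as a block, Ctsk passed at 10 and 24 h and Acp5 at 24 h. The labels do not tie these numbers to animals. Ctsk, the collagen-degrading protease cathepsin K, read 8.93, 8.95 and 8.51 log2 at baseline, 8.79, 8.72 and 8.58 at 1 h, 8.96, 8.94 and 8.55 at 2 h, 8.77, 9.09 and 8.63 at 4 h, 8.58, 8.75 and 8.41 at 10 h and 8.41, 8.61 and 8.23 at 24 h. Replicate 3 was the lowest array in all 6 groups, and at 24 h 1 of the 3 arrays lay inside the baseline range. The difference at 24 h was -0.37 ± 0.13 log2 (95% interval -0.64 to -0.11, 0.771-fold), with a limma adjusted p of 0.0573. It passed when baseline replicate 3 (-0.52 log2, adjusted p = 0.00983), 2 h replicate 3 (adjusted p = 0.0395), 4 h replicate 2 (adjusted p = 0.0413) or 24 h replicate 2 (-0.47 log2, adjusted p = 0.0301) was left out. Over all fits with 1 array left out, the difference ran from -0.52 to -0.28 log2, with a limma adjusted p of 0.00983 to 0.252. Against 4 h it was -0.41 log2 with an adjusted p of 0.051. Ctsk followed Atp6v0d2 over the 18 arrays with a Pearson r of 0.86, a value that includes the shared low level of the replicate 3 arrays.

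Acp5, the gene for tartrate-resistant acid phosphatase, ran in the opposite direction in mean value. It read 5.42, 6.00 and 5.66 log2 at baseline, 5.61, 5.76 and 5.46 at 1 h, 5.55, 5.89 and 5.68 at 2 h, 5.57, 5.95 and 5.72 at 4 h, 5.65, 6.26 and 5.78 at 10 h and 5.95, 6.53 and 5.93 at 24 h. Replicate 2 was the highest array in all 6 groups, and the 24 h arrays overlapped baseline. The difference at 24 h was 0.44 ± 0.18 log2 (95% interval 0.06 to 0.82, 1.36-fold, limma adjusted p = 0.125), and at 1, 2, 4 and 10 h it lay between -0.08 and 0.20 log2. At 24 h the unadjusted p was 0.0237 for Acp5 and 0.00771 for Ctsk, so 4 of 6 members were under 0.05 before adjustment over all genes and 2 after it.

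The rest of the pathway was read from 6 lists of genes, none of them members. At 24 h 12.7% of all genes were called. The lists were chosen with earlier results of these data known, so their counts beside such shares are a description and not a test. In RANK signalling and its partner transcription factors 5 of 23 tested genes rose, 1 fell and 17 did not pass. Jdp2, an AP-1 family protein used in osteoclast formation in mice, read 9.42, 9.35 and 9.33 log2 at 24 h against 7.17, 7.16 and 7.06 at baseline. The groups were far apart, a rise of 2.24 ± 0.07 log2 (limma adjusted p = 1.16e-17), and it was already up by 0.70 log2 at 1 h. Fos, the AP-1 protein without which mice form no osteoclasts, rose by 1.28 log2 at 1 h, 1.39 at 4 h and 0.50 at 24 h, with 8.72, 9.11 and 8.97 log2 at 24 h against 8.35, 8.41 and 8.55 at baseline. Mapk14, the kinase p38α, rose by 0.34 log2 at 24 h. Prdm1, the repressor Blimp1 that silences inhibitors of the program, fell to under background on all 3 arrays at 24 h, against a mean of 4.43 log2 at baseline (limma adjusted p = 0.00092). With each 24 h array set to its own background level it was at least 1.44-fold lower. Csf1r, the CSF1 receptor on the same list, differed by 0.03 ± 0.05 log2 at 24 h. The median change of the list was 0.02 log2.

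Among 15 tested inhibitors of osteoclast formation 3 rose at 1 h, 4 rose and 2 fell at 2 h, 6 rose and 2 fell at 4 h, 7 rose and 2 fell at 10 h, and 5 rose and 2 fell at 24 h. Of all genes, 0.387%, 2.15%, 7.52%, 14.4% and 12.7% were called at those times. The genes that fell at 2 h were Bcl6, by 0.46 log2, and Irf8, by 0.41 log2, and neither was called later. Dusp1, a phosphatase that switches off p38 and JNK, is itself a glucocorticoid target and was also among the treatment check genes; it rose by 3.36 log2 at 1 h and 2.29 log2 at 24 h. Id1, a dominant negative partner of helix-loop-helix factors, read 6.87, 6.45 and 6.26 log2 at 24 h against 5.25, 4.94 and 4.73 at baseline. Every treated array from 1 h on was above all baseline arrays, and the rise at 24 h was 1.55 ± 0.16 log2 (limma adjusted p = 6.17e-08). Irf2, an interferon regulatory factor, rose by 0.75 log2, and Rbpj, the Notch pathway factor that restrains osteoclast formation, fell by 0.47 log2 at 24 h. Cebpa, called higher at 4 and 10 h, stands on this list although it is also known to promote the lineage. The list's median change was 0.25 log2 at 24 h.

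In the ITAM and calcium arm, through which OSCAR and related receptors reach NFATc1, 3 of 16 tested genes rose and 5 fell at 24 h. The largest change was in Itpr2, a calcium release channel of the endoplasmic reticulum, which read 7.43, 7.51 and 7.40 log2 at 24 h against 8.28, 8.06 and 8.17 at baseline and fell by 0.73 ± 0.07 log2 (limma adjusted p = 4.79e-08). Blnk, an adaptor of the same pathway, fell by 0.45 log2, and Tec, a kinase that activates phospholipase C gamma, by 0.35 log2. Lcp2, the adaptor SLP-76, fell by 0.43 log2 at 4 h and rose by 0.29 log2 at 24 h. Tyrobp, the adaptor DAP12, differed by -0.07 log2.

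**Figure D3:**
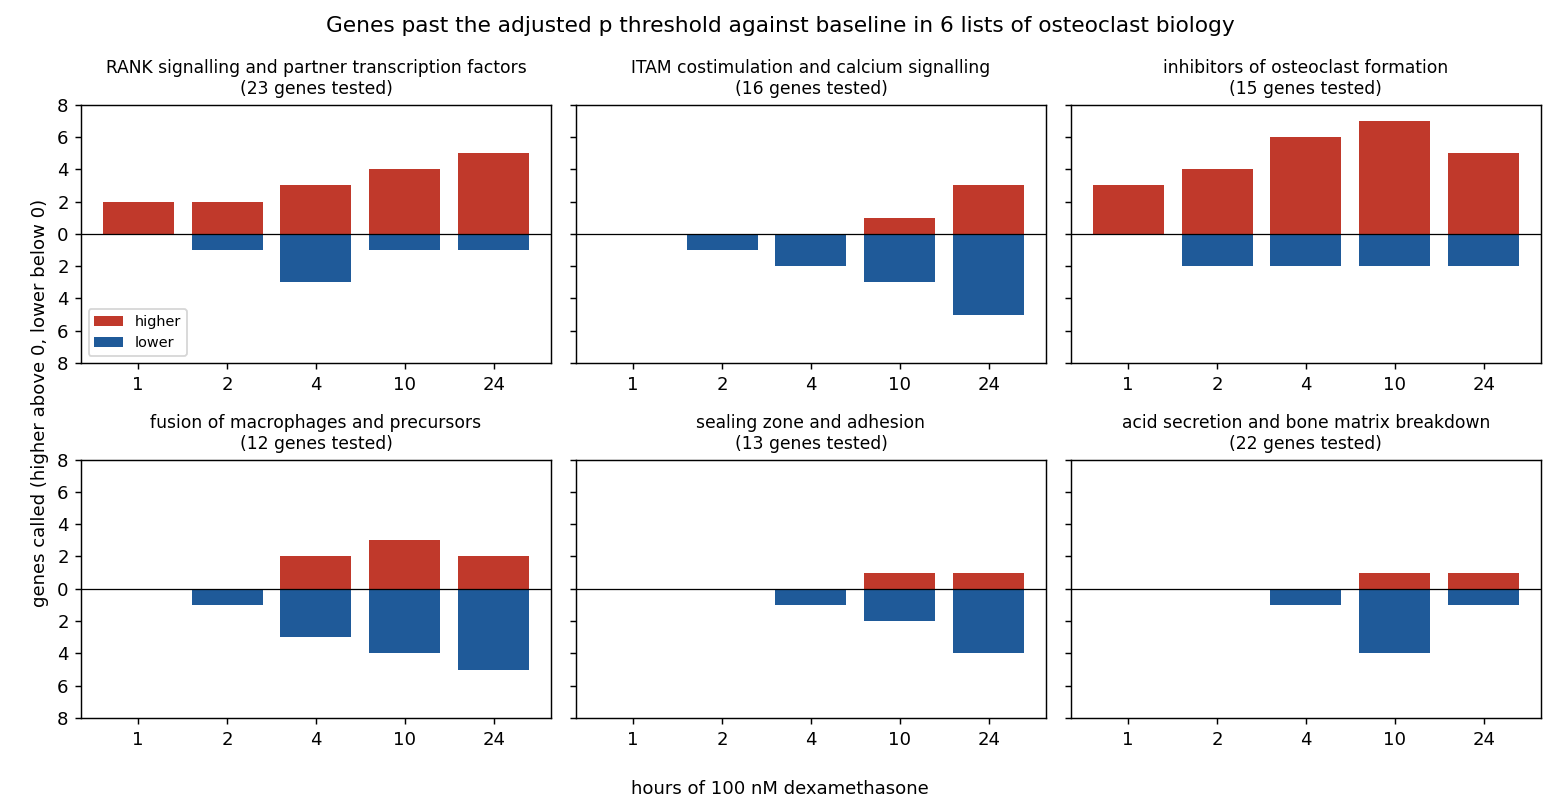
Number of genes called higher (above 0) and lower (below 0) than baseline at a limma adjusted p under 0.05, at 1, 2, 4, 10 and 24 h of dexamethasone, in 6 lists of osteoclast biology. Calls begin at 1 h among the inhibitors, with 3 higher, and in the RANK signalling list, with 2 higher. In the sealing zone list the first call is 1 lower gene at 4 h, and 24 h has 1 higher and 4 lower.

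Among adhesion genes of the sealing zone list 1 of 13 tested genes rose and 4 fell at 24 h. Itgb3, the β3 subunit of the vitronectin receptor αvβ3 by which osteoclasts hold on to bone, read 7.15, 6.90 and 7.25 log2 at baseline, 6.45, 5.86 and 6.16 at 10 h and 5.12, 5.54 and 6.07 at 24 h. All arrays at 10 and 24 h lay below all baseline arrays, with changes of -0.95 ± 0.21 log2 at 10 h and -1.52 ± 0.21 log2 at 24 h (limma adjusted p = 1.02e-05). Its partner Itgav fell by 0.40 log2, the linkers Tln1 and Vcl by 0.31 log2 each, and Itgb5, another partner of Itgav, rose by 0.36 log2. Among 12 tested fusion genes 2 rose and 5 fell at 24 h. Cd9, a tetraspanin that organises fusion sites, was at 11.92, 12.02 and 12.02 log2 at 24 h against 12.58, 12.56 and 12.58 at baseline, a change of -0.59 ± 0.04 log2. Adam8, a metalloprotease, rose by 0.47 log2, Cd36 fell by 0.39 log2, and the chemokine gene Ccl2 fell by 1.02 log2 at 2 h and 0.38 log2 at 24 h.

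**Figure D4:**
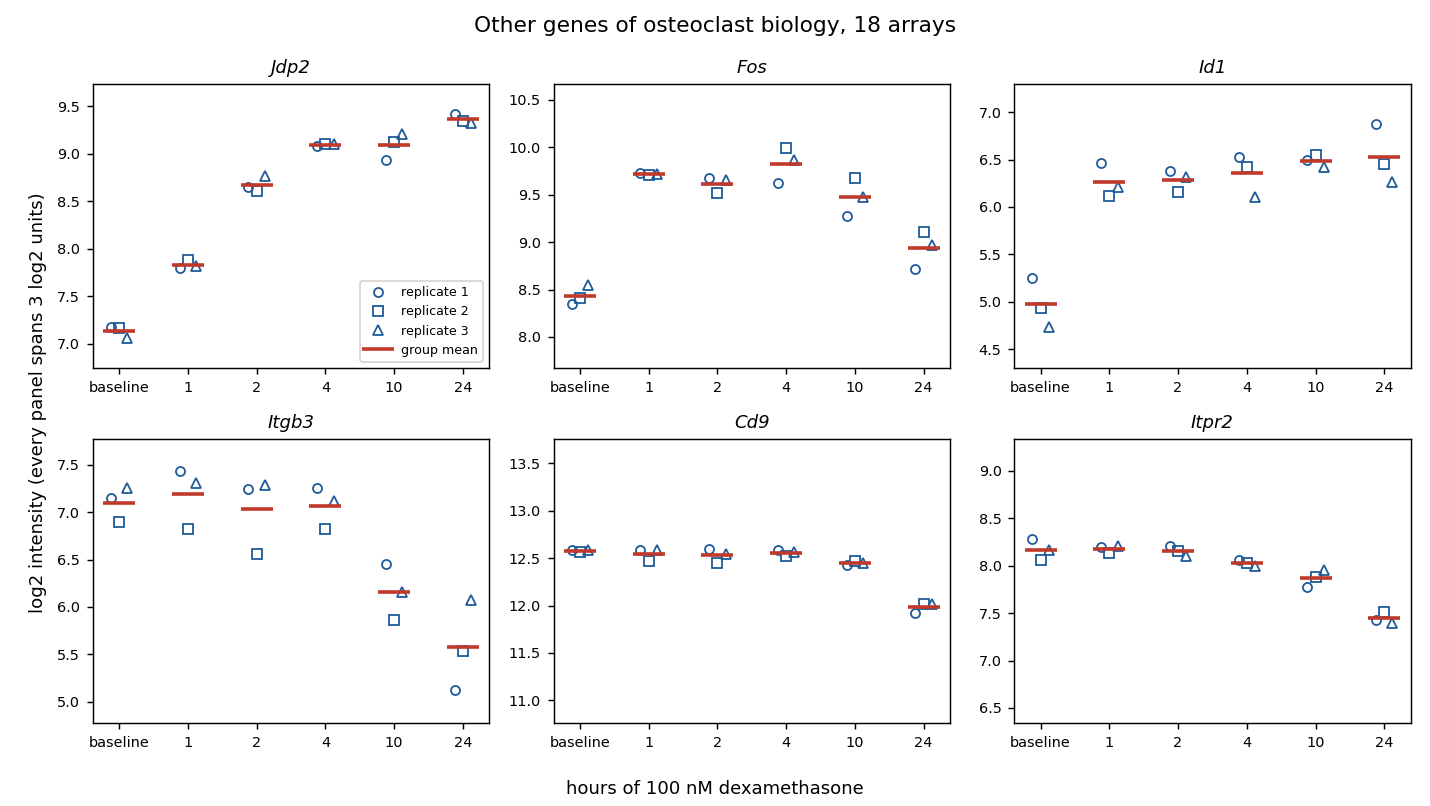
Log2 intensity on all 18 arrays of Jdp2, Fos, Id1, Itgb3, Cd9 and Itpr2, at baseline and after 1, 2, 4, 10 and 24 h of dexamethasone; open symbols are arrays by replicate number and red bars are group means of 3. Jdp2, Fos and Id1 are above baseline from 1 h on, and Itgb3, Cd9 and Itpr2 reach their lowest group means at 24 h.

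The acid and matrix list, which holds proton pump subunits and matrix proteases, had 1 of 22 tested genes rising and 4 falling at 10 h, when 14.4% of all genes were called, and 1 rising and 1 falling at 24 h. Slc9b2, a sodium and proton exchanger, read 3.32, 3.32 and 3.13 log2 at 10 h against 4.32, 4.14 and 4.15 at baseline, and was under background on all 3 arrays at 10 h and at 24 h. It fell at both times (limma adjusted p = 1.45e-05 and 0.0211), and with those arrays at their background it was at least 1.22-fold lower at 10 h and at least 1.23-fold lower at 24 h. Ctsl, cathepsin L, rose by 0.27 log2 at 24 h. The pump genes Atp6v1a and Atp6v1d fell by 0.21 and 0.15 log2 at 10 h, without a call at 24 h, where Atp6v0d2 fell. Tcirg1, the osteoclast form of the pump's a subunit, differed by -0.09 log2 at 24 h (limma adjusted p = 0.402), and Mmp9 stayed near background, at 3.98 log2 at 24 h against 4.14 log2 at baseline.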

How the data were processed

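RNA of 18 cultures was hybridised to Affymetrix arrays, 1 per array. The deposited table gives each probe set a linear intensity on every array. Per the submitters' processing notes it was computed by RMA with affy; versions are not given in the sources used here. RMA makes the distributions of arrays alike, so a shift shared by most genes would be removed. Log2 of the deposited intensity was taken before any test. In baseline replicate 1, 211 consecutive probe sets held an even series without scatter; they were left out on all arrays, and 0 of them belonged to a member. Of 45141 probe sets, 28898 had 1 gene symbol, and each gene was represented by its brightest probe set, on average of the 18 arrays. A gene entered the tests if its value reached the array's 40th percentile on 3 or more arrays, which left 13190 genes. Limma 3.58.1 in R 4.3.3 fitted 1 mean per group to all 18 arrays, with eBayes and an intensity trend. Contrasts set the 5 treated groups against baseline and successive groups against each other; other pairs of times came from the same fit, and an F test took the 5 times together. Two-sided p-values were adjusted over all genes of a contrast by Benjamini-Hochberg, with a threshold of 0.05. Errors are limma standard errors unless an SD is named. The number of arrays limits the precision, and no depth exists as for reads. The tests were checked on simulated data drawn independently for each array, so that check does not cover deviations shared by same-numbered arrays.

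The members and the gene lists were chosen with earlier results of these data known. Genes named were all members and up to 4 genes of each list passing at 24 h by size of change. The 3 genes most like a member called by the F test were named too. Of the 5 treatment check genes only Fkbp5 and Dusp1 were named. Adgre1 and Cd68 were named outside this rule, as macrophage markers. Csf1r, Tyrobp, Vcl, Cebpa, Bcl6, Irf8, Tcirg1, Mmp9, Atp6v1a, Atp6v1d, Elane and Cxcr2 were added after their values were seen. Alternatives covered the choice of probe set, the filter, the scaling, the intensity trend, the arrays fitted, the stepped run, a minimum change, the replicate number as a block and each array left out.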

Additional observations from a re-analysis of the deposited data

Results flagged for a closer look

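Some members changed by different amounts at different times, by limma's test of the difference between those times. For Nfatc1 on its brightest probe set, the change against baseline was larger at 4 h (0.41 log2) than at 1 h (-0.06 log2), a difference of 0.47 ± 0.09 log2 (adjusted p = 0.000865). It was also larger at 10 h than at 1 h by 0.39 log2 (adjusted p = 0.00303) and at 24 h than at 1 h by 0.34 log2 (adjusted p = 0.0101). For Atp6v0d2, the change was -0.52 log2 at 24 h against 0.16 log2 at 4 h, a difference of -0.68 ± 0.17 log2 (adjusted p = 0.0117), and against 0.02 log2 at 2 h it was a difference of -0.55 ± 0.17 log2 (adjusted p = 0.0456).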

How the results depend on the processing

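Several of the calls on the members lie close to the threshold. Under 13 alternatives no member was called at 1 h, at 2 h or for 2 h against 1 h, as in the report. The other counts moved as follows (reported counts 2, 2, 2 and 1 at 4, 10 and 24 h and in the F test, 0 for the steps). With the probe set of largest variance for each gene, 1, 0, 0 and 0 members were called at 4, 10 and 24 h and in the F test. That choice turned Nfatc1 to 0.03, -0.32 and -0.21 log2 at 1, 10 and 24 h, and Oscar to -0.19, -0.11, -0.20, -0.04 and -0.07 log2 at 1, 2, 4, 10 and 24 h. With the mean of all probe sets, 1 member was called at 4 h and 1 at 10 h, Tnfrsf11a passed at 24 h (0.41 log2, limma adjusted p = 0.0468), Nfatc1 stood at -0.05 log2 at 24 h, Atp6v0d2 at 0.07 and 0.05 log2 at 1 and 10 h, and Oscar at -0.03, -0.02 and 0.00 log2 at 1, 4 and 10 h. With every probe set tested, 1 member was called for 24 h against 10 h and 2 in the F test. The F test called 2 also without the filter, after quantile normalization and after median centring. Quantile normalization gave 1 at 10 h and 1 for 4 h against 2 h, and turned Acp5 to -0.11 and -0.05 log2 at 2 and 4 h. Without the intensity trend 1 was called at 10 h and 0 at 24 h, with the stepped run kept 1 at 10 h and 1 at 24 h, with only the arrays compared 1 for 4 h against 2 h, and with a minimum change of 1 log2 unit 0 at 4, 10 and 24 h. With the replicate block, 4 members were called at 24 h, 1 each for 4 h against 2 h, 10 h against 4 h and 24 h against 10 h, and 5 in the F test; Ctsk and Acp5 then passed at 24 h (limma adjusted p = 0.000148 and 0.0136) and Ctsk at 10 h (0.0294). Ctsk at 24 h also passed after quantile normalization (0.0454) and with only the arrays compared (0.0443). The labels do not say that a number marks an animal. Same-numbered arrays of different groups deviated together with correlations of 0.024 to 0.290, over 0.1 in 35 of 45 pairs. For arrays of different number the correlations were -0.227 to 0.076, over 0.1 in 0 of 90 pairs. All 18 arrays correlated best with their own number, a hint from the data and not the design. Leaving out each array in turn gave 1 to 2 members at 4 h, 0 to 2 at 10 h, 0 to 3 at 24 h, 0 to 1 for 24 h against 10 h and 1 to 4 in the F test, and 0 elsewhere. Small changes crossed 0 over these fits: Nfatc1 at 1 h ran from -0.12 to 0.03 log2, Acp5 from -0.22 to 0.07, -0.12 to 0.17 and -0.09 to 0.20 at 1, 2 and 4 h, Ctsk from -0.12 to 0.16 and -0.11 to 0.13 at 2 and 4 h, Atp6v0d2 from -0.13 to 0.05, -0.07 to 0.16 and -0.13 to 0.18 at 1, 2 and 10 h, and Oscar from -0.05 to 0.16 at 10 h. The causes were not tested. Oscar and Ocstamp were under background, so their changes cannot be read.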
